A study of Mus musculus with 2 samples.

Results

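The genes described here make cholesterol and fatty acids, or control that synthesis. They are 30 genes, chosen by pathway role and not by measured level, though earlier results of these data were known. All 30 have a row in both deposited tables, of 14366 genes in each. There are 18 enzymes of cholesterol synthesis, split into 7 of the mevalonate segment and 11 of the sterol segment, 6 regulators and transport genes, and 6 genes of fatty acid synthesis and desaturation. The cells were hematopoietic stem cells (HSC), sorted as lineage-negative, Sca-1+, c-Kit+, CD150+ and CD48- cells from bone marrow pooled over 8 wild-type C57/B6 mice, 6 to 8 weeks old. Both cultures received thrombopoietin at 50 ng/ml and stem cell factor at 100 ng/ml for 48 h. The vehicle culture had sterile water, and the other had the iron chelator deferoxamine (DFO) at 10 µM. Transcript 3′ ends were sequenced from 20000 cells loaded per culture, with each molecule counted once by its unique molecular identifier (UMI). The series text describes a single pooled sort, but that both libraries came from it is not stated for each library.

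Cholesterol is built from acetyl-CoA through mevalonate and isoprenoids to squalene, and then through a series of sterols. The transcription factor SREBP-2 switches on most of these enzymes when sterols in the endoplasmic reticulum are low: SCAP carries it to the Golgi, where it is cut, and the INSIG proteins hold SCAP back when sterols are plentiful. SREBP-1c, made from Srebf1, acts more on fatty acid synthesis, which starts from the same acetyl-CoA. Among the enzymes, CYP51 carries a heme, and MSMO1, SC5D, SCD1 and SCD2 carry a diiron centre. In bone marrow, cholesterol supply is known to affect HSC proliferation and the output of platelets.

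Promoter sequences were available for 24 of the 30 members, from RefSeq on GRCm38.p6. They were searched over the 250 bases before the start, on both strands, for TCACNCCAC (a strict form of the sterol regulatory element), CCAAT (the box bound by NF-Y, a partner of SREBP), CACGTG (an E-box) and GGGCGG (a GC box). Only Hmgcs1 held TCACNCCAC, which 1.24% of 10775 genes of the tables with a promoter also held. CCAAT was in 14 of 15 cholesterol enzymes, 4 of 5 regulators and 1 of 4 fatty acid genes, against 40.5% of those 10775 genes. GGGCGG was in 20 of the 24 members, against 61.8%, and CACGTG in 5, against 9.71%. For 4 members the sequence is printed, 5′ to 3′ on the strand of the gene, from just upstream of the first match to just past the last, with both TCACNCCAC and CCAAT (or ATTGG, its reverse) in capitals. Hmgcs1 is shown as the only member with both motifs, its TCACCCCAC starting 137 bases before the start of the gene. Mvd and Ebp are shown because their transcripts followed the other cholesterol enzymes across cells strongly and weakly, and Fasn because it was the member highest in the DFO library relative to vehicle. These 3 were chosen after their values were seen. In Fasn, CCAATTGG holds 2 matches that overlap. A match describes the letters and does not show binding.
Hmgcs1, chr13:119690101-119690325, plus strand: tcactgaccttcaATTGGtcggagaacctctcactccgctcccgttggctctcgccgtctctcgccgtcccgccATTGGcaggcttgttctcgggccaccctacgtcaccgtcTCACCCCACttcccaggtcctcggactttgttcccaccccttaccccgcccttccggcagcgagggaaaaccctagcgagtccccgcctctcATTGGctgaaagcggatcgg
Mvd, chr8:122443430-122443497, minus strand: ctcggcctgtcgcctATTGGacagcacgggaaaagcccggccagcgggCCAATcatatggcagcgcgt
Ebp, chrX:8193548-8193697, minus strand: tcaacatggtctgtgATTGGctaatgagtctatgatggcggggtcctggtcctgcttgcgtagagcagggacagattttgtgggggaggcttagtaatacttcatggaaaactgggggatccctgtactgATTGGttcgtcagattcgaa
Fasn, chr11:120824587-120824652, minus strand: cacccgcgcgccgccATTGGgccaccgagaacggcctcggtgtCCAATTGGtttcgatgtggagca

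The vehicle library held 8708 cells and 260938938 molecules and the DFO library 9852 cells and 284326017 molecules, with medians of 27805.5 and 27114 UMIs per cell, and 24 cell barcodes occurred in both. Levels are counts scaled to 1000000 molecules per library (CPM), which count 3′ ends and so are not scaled to gene length. There is 1 library per group, so no difference between the libraries has a test or a p-value. The intervals in parentheses are exact 95% Poisson intervals, which cover counting error only and leave out variation between cells, cultures and library preparations. Differences are log2((DFO CPM + 1)/(vehicle CPM + 1)). Over the 8886 genes whose mean reached 5 CPM, they had a median of 0.019 and a 5th to 95th percentile range of -0.18 to 0.18. Fewer cells that use a gene and fewer molecules per cell cannot be told apart in such sums.

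Cholesterol enzymes as a group were lower in the DFO library. Their summed level was 742 CPM (739 to 746) with vehicle and 671 CPM (668 to 674) with DFO, a ratio of 0.904. Of the 17 enzymes at 5 CPM or more, 17 were lower, where 42.1% of all genes were, and the median difference was -0.17. A difference of -0.1 or below was found for 13 of these 17 and for 14 of the 28 members at 5 CPM or more, against 14.0% of all genes. At a size of 0.05 the members were 17, against 24.8% of all genes, and at 0.2 they were 6, against 4.12%. Intervals of the 2 libraries lay apart for 14 of the 17, where 21.4% of all genes were lower with intervals apart. The mevalonate and sterol segments were lower by the same ratio, 346 to 313 CPM and 396 to 358 CPM, each 0.904. Markers of another cell type moved between the libraries at the same time. The 12 megakaryocyte markers summed to 1777 CPM with vehicle and 805 CPM with DFO, and all 10 of them at 5 CPM or more were lower. The 16 S phase genes were all higher in the DFO library, with sums of 2038 and 2204 CPM. The part of these shifts in the members' differences was not tested. Values within clusters are given further on, with the same markers beside them.

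Mvk, which phosphorylates mevalonate, showed the largest difference of the members and lies on chromosome 5 at 114444269 to 114460591 (mm10, GENCODE M21). Its level was 16.6 CPM (16.1 to 17.1) with vehicle and 13.4 CPM (12.9 to 13.8) with DFO, a difference of -0.29. Fdps, which makes farnesyl diphosphate at the branch point to prenylation and sterols, was at 79.3 CPM (78.3 to 80.4) with vehicle and 66.2 CPM (65.2 to 67.1) with DFO, a difference of -0.26. The level of Fdps with DFO was 16.6% below that with vehicle, and that of Mvk 19.5%. Hmgcs1, the synthase that commits acetoacetyl-CoA to the pathway, was at 56.0 CPM with vehicle and 49.3 CPM with DFO (-0.18), or 1.68 and 1.42 molecules per cell. Mvd, the decarboxylase that yields isopentenyl diphosphate, was at 14.3 and 12.3 CPM (-0.21). Pmvk, the second kinase, was at 43.7 and 38.8 CPM (-0.17). In these 5 genes the DFO library was the lower of the 2 and the intervals lay apart. The other members of the segment differed less. Acat2, the thiolase of the first step, was at 35.5 and 34.0 CPM (-0.06), with intervals apart. Idi1, the isomerase that makes dimethylallyl diphosphate and the most abundant member of the set, was at 100.5 CPM (99.3 to 102) with vehicle and 98.7 CPM (97.6 to 99.9) with DFO, a difference of -0.03 with overlapping intervals.

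In the sterol segment, Lss, which closes the ring to lanosterol, was at 6.78 CPM (6.47 to 7.11) with vehicle and 5.57 CPM (5.30 to 5.86) with DFO, a difference of -0.24. Cyp51, the heme enzyme that removes the first methyl group from lanosterol, was at 50.8 and 43.7 CPM (-0.21). Fdft1, the squalene synthase, was at 25.2 and 22.2 CPM (-0.17). Enzymes before and after the ring closure were thus both lower. Ebp, the sterol isomerase, was at 63.4 and 56.5 CPM (-0.17), Nsdhl, a decarboxylating dehydrogenase of the demethylation complex, at 26.9 and 24.3 CPM (-0.14), and Msmo1, the diiron methyl oxidase of the same complex, at 95.2 and 86.3 CPM (-0.14). Dhcr7, which reduces a double bond of the B ring, was at 22.4 and 20.4 CPM (-0.13). Sqle, the epoxidase that prepares squalene for ring closure, was at 71.8 and 66.9 CPM (-0.10). All 8 of these enzymes had intervals that lay apart. The remaining enzymes were closer to level. Sc5d, the diiron desaturase, was at 23.3 CPM (22.7 to 23.9) with vehicle and 22.5 CPM (21.9 to 23.0) with DFO, a difference of -0.05. Hsd17b7, the ketoreductase, was at 7.39 CPM (7.06 to 7.73) and 7.17 CPM (6.87 to 7.49), a difference of -0.04. Their intervals overlapped between the libraries. Tm7sf2, a C14 sterol reductase, was under the 5 CPM minimum, at 3.25 and 2.70 CPM (-0.20), and its exons overlap those of Vps51 on the same strand.

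**Figure D1:**
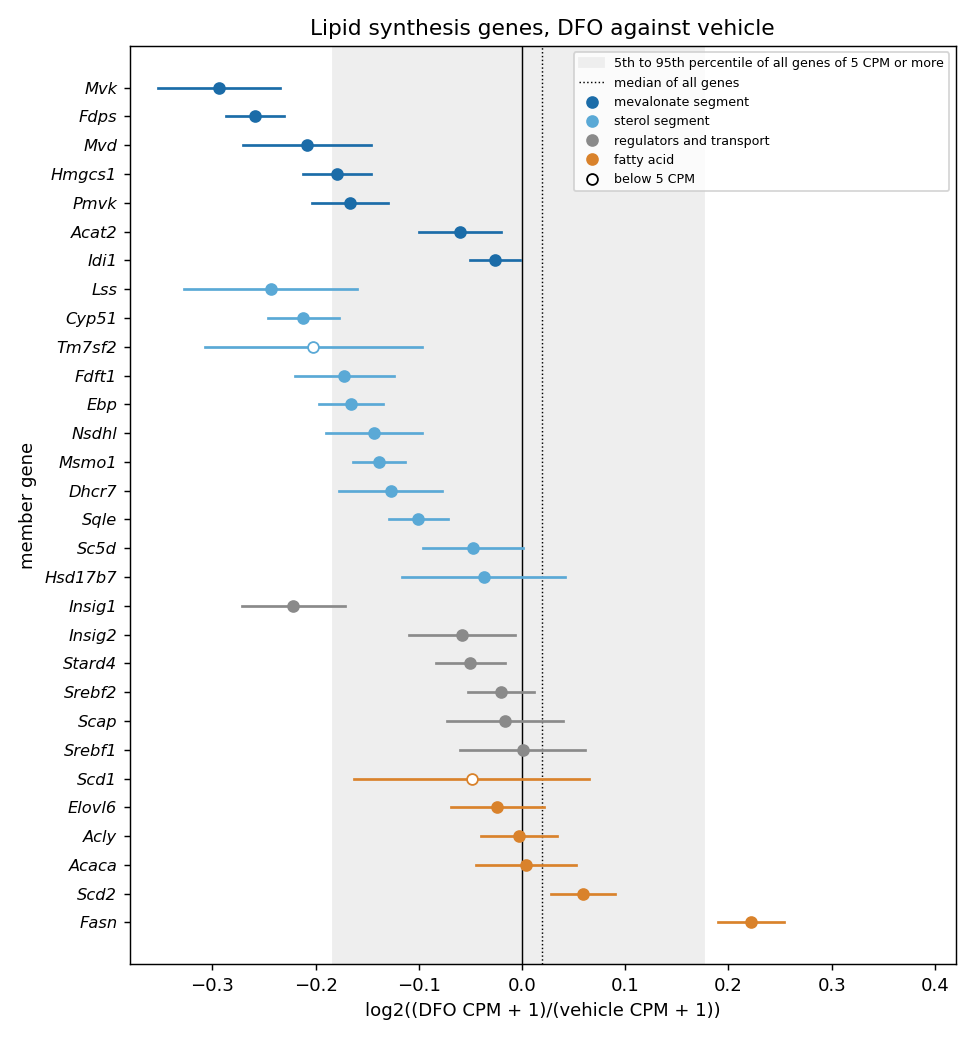
Difference of each of the 30 members, log2((DFO CPM + 1)/(vehicle CPM + 1)), with its 95% interval for counting error as a bar; colours give the segment, open circles are members under 5 CPM, the grey band is the 5th to 95th percentile of 8886 genes and the dotted line their median of 0.019. The 18 cholesterol enzymes lie between -0.29 and -0.03, Insig1 stands at -0.22 apart from the other regulators, and Fasn at 0.22 is the only member to the right of the band.

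Among the 6 regulators, Insig1 (chromosome 5, 28071363 to 28078662, mm10) was the only one with a difference of -0.1 or below, as 14.0% of all genes had. Insig1, which retains SCAP and is itself a target of SREBP, was at 23.2 CPM (22.6 to 23.8) with vehicle and 19.7 CPM (19.2 to 20.2) with DFO, a difference of -0.22. Insig2, its relative that is less dependent on SREBP, was at 20.6 CPM (20 to 21.1) and 19.7 CPM (19.2 to 20.2), a difference of -0.06 with overlapping intervals. At 20.6 and 23.2 CPM the pair had similar levels with vehicle, and only Insig1 was further from level than 0.1. Stard4, a carrier of cholesterol between membranes, was at 50.9 CPM (50.0 to 51.8) and 49.1 CPM (48.3 to 49.9), a difference of -0.05 with intervals apart. Srebf2, which encodes SREBP-2, was at 55.2 CPM (54.3 to 56.2) and 54.4 CPM (53.6 to 55.3), a difference of -0.02. Scap was at 16.8 CPM (16.3 to 17.3) and 16.6 CPM (16.1 to 17.1), also -0.02. Srebf1 was at 14.0 CPM in both libraries (13.6 to 14.5 each). The intervals of Srebf2, Scap and Srebf1 overlapped. Over the 6 genes the median was -0.04, and 2 lay below with intervals apart, where 21.4% of all genes did.

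The fatty acid branch as a group was not lower in the DFO library. Its 6 genes summed to 204 CPM (202 to 206) with vehicle and 215 CPM (213 to 217) with DFO, a ratio of 1.05. Over the 5 genes at 5 CPM or more the median difference was 0.00, and 1 reached 0.1 or above, where 19.2% of all genes did. Fasn, the fatty acid synthase (chromosome 11, 120805846 to 120824547, mm10), was that gene. It was at 52.9 CPM (52.0 to 53.8) with vehicle and 61.9 CPM (60.9 to 62.8) with DFO, a difference of 0.22 that lay at the 97.9th percentile of all genes. Scd2, a diiron desaturase that makes monounsaturated fatty acids, was at 58.6 CPM (57.6 to 59.5) and 61.0 CPM (60.1 to 62.0), a difference of 0.06 with intervals apart. Fasn and Scd2 were the only members whose DFO interval lay above that of vehicle, as it did for 32.7% of all genes. Acly, which makes cytosolic acetyl-CoA from citrate and so feeds both branches, was at 40.5 CPM (39.7 to 41.3) and 40.4 CPM (39.7 to 41.2), a difference of 0.00. Acaca, the acetyl-CoA carboxylase that makes the first committed intermediate, was at 23.0 CPM (22.4 to 23.6) and 23.1 CPM (22.5 to 23.6), again 0.00. Elovl6, the elongase of palmitate, was at 26.9 CPM (26.3 to 27.5) and 26.4 CPM (25.8 to 27.0), a difference of -0.02. Intervals of these 3 overlapped, and no order between the libraries can be read for them. Scd1, which lies beside Scd2 on chromosome 19, was under the minimum at 2.11 CPM (1.94 to 2.30) and 2.01 CPM (1.85 to 2.18), so the 2 desaturases are present at very unequal levels by 3′ counts.

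Iron-using enzymes were spread over the range of the other members. Cyp51, Msmo1, Sc5d and Scd2, the 4 of 5 at 5 CPM or more, had a median of -0.09, with Cyp51 at -0.21 and Scd2 at 0.06 as its ends. The 14 cholesterol enzymes without iron had a median of -0.17. These medians are not of like sets, since Scd2 belongs to the fatty acid branch. The cholesterol enzymes with iron, Cyp51, Msmo1 and Sc5d, differed by -0.21, -0.14 and -0.05. Genes next to the pathway, taken from 3 lists by their role, had medians nearer 0, and their counts are to be read against the 14.0% of all genes at -0.1 or below and the 19.2% at 0.1 or above. The prenyl branch uses farnesyl and geranylgeranyl diphosphate for protein prenylation, ubiquinone and dolichol. It had 9 of 11 genes higher and 2 lower, where 42.1% of all genes were lower. Its median was 0.03, and 1 gene was at -0.1 or below. Of 16 other genes of sterol uptake, efflux and regulation, 12 passed the minimum, and 2 were at -0.1 or below and 1 at 0.1 or above, with a median of -0.05 and a range of -0.48 to 0.13 that reached lower than any member. With intervals apart, 6 of these 12 lay below vehicle and 2 above, where 21.4% and 32.7% of all genes did. Of 18 other genes of fatty acid synthesis and elongation, 12 passed, 2 at -0.1 or below and 3 at 0.1 or above, with a median of -0.01. The adipocyte markers Adipoq, Plin1, Lep, Cidec and Cfd had no row in the tables, and the only marker of that list with one, Lpl, was at 10.0 and 7.35 CPM.

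Cell states were taken from a clustering that used no member and none of the related lists. Of its 8 clusters, 3 could be named from markers. Cluster 0 was HSC-like, led by Wfdc2, Sult1a1, Pcp4l1, Ly6a and Procr, and made up 17.1% of the vehicle and 21% of the DFO library. Cluster 1 was neutrophil-monocyte-like, led by Ctsg, the only marker of that list among its top 10 genes, so this name is tentative. With vehicle the markers of that list summed to 363 CPM in cluster 1 and 315 CPM in cluster 5. Over the 5 and 4 of them detected there, the mean log2 difference from all other cells was 2.23 and -0.263. Cluster 3 was megakaryocyte-like, with Cavin2, Serpine2, Timp3, Pf4, Treml1 and Clec1b among its top 10 genes and shares of 18% and 11.8%. The genes that lead cluster 2 include Ube2c, Nusap1 and Cenpf, which act in mitosis. Clusters 4 (led by Slc7a8, Lpl and Fgf3), 5 (Pdcd1, Aldoc and Tlr12) and 6 (Slc7a8, Fgf3 and Gna14) stayed unnamed. The top 10 genes of cluster 4 held the erythroid markers Klf1 and Aqp1. Those of cluster 6 held the erythroid marker Gata1 and the mast or basophil marker Gzmb. Cluster 7 was shallow, with a median of 6938 UMIs and a mitochondrial share of 6.85%, and held 4.77% and 4.80% of cells.

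With vehicle, the summed cholesterol enzymes were highest in the megakaryocyte-like cluster. They were at 813 CPM (806 to 820) there, between 776 and 788 CPM in clusters 4, 5 and 6, at 722 CPM in cluster 1, and lowest for HSC-like cells at 683 CPM (674 to 692) and cluster 2 at 670 CPM (662 to 677), whose intervals overlapped. The HSC markers summed to 579 CPM in cluster 0, 552 CPM in cluster 2 and 543 CPM in cluster 5 with vehicle. The cholesterol sum thus differed between clusters with like sums of HSC markers. The intervals of clusters 4 (777 to 799), 5 (765 to 788) and 6 (772 to 792) overlapped, so these 3 have no order. Over these 7 clusters the highest was 1.21-fold above the lowest with vehicle and 1.17-fold with DFO, where the highest was cluster 6 at 733 CPM (723 to 743). The shallow cluster was lower, at 467 CPM (446 to 489) and 426 CPM (407 to 446), and brought the fold to 1.74 and 1.72. In each of the 8 clusters the sum was lower in the DFO library, at 656 CPM (648 to 663) for HSC-like and 707 CPM (699 to 715) for megakaryocyte-like cells. The fatty acid genes had another order. Over clusters 0 to 6 their vehicle sums lay between 186 CPM in cluster 6 and 223 CPM in cluster 5, and the megakaryocyte-like cluster was in the middle at 205 CPM. In the shallow cluster they were at 350 CPM (332 to 369) with vehicle and 395 CPM (377 to 415) with DFO, above each other cluster.

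**Figure D2:**
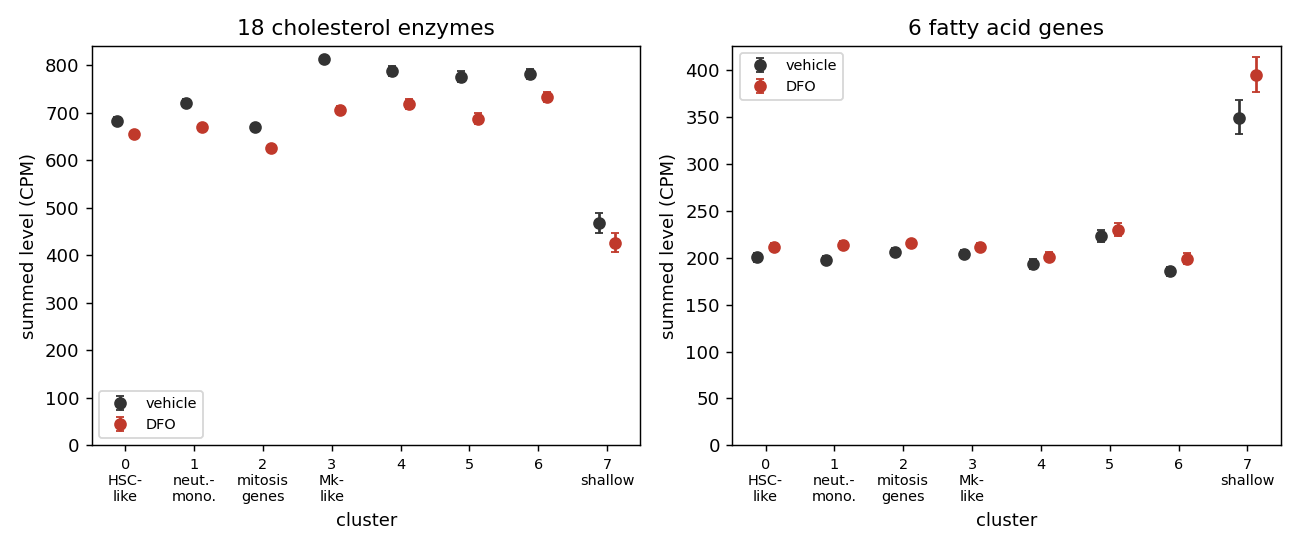
Summed level in CPM of the 18 cholesterol enzymes (left) and the 6 fatty acid genes (right) in each of 8 clusters, vehicle in black and DFO in red, with 95% Poisson intervals as bars. The cholesterol sum is lower in the DFO library in each cluster, 813 against 707 CPM in cluster 3, and the fatty acid sum is higher in each, with the shallow cluster 7 low in the first panel and high in the second.

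Single members did not share 1 pattern over the clusters. Of the 17 enzymes at 5 CPM or more, 10 were highest in the megakaryocyte-like cluster among clusters 0 to 6 with vehicle, where 27.6% of all genes were. With DFO they were 4 of 17, a share near the 28.6% of all genes. Idi1 was at 120 CPM there against 86.0 CPM in cluster 2, and Mvd at 19.0 against 11.2 CPM in cluster 1, both with vehicle. Hmgcs1 and Fdft1 ran the other way. With vehicle Hmgcs1 was lowest in the megakaryocyte-like cluster, at 49.4 CPM, and highest in cluster 5, at 72.4 CPM, and Fdft1, at 21.9 CPM in the megakaryocyte-like cluster, was 1.37-fold higher in cluster 5. Insig1 was also lowest in the megakaryocyte-like cluster, at 19.8 CPM with vehicle and 16.0 CPM with DFO, and highest of clusters 0 to 6 in cluster 5, at 28.9 and 24.4 CPM. Scd2 had a like order, at 51.0 and 48.3 CPM in the megakaryocyte-like cluster and 87.9 and 88.1 CPM in cluster 5. Stard4 was highest where Insig1 was lowest, at 62.7 and 60.9 CPM in the megakaryocyte-like cluster and 41.7 and 45.0 CPM in the HSC-like cluster. In the shallow cluster Srebf2 (102 CPM), Insig1 (64.9 CPM), Stard4 (81.3 CPM) and Scd2 (123 CPM) were high with vehicle, while Ebp (13.2 CPM) and Pmvk (14.7 CPM) were low. The part of depth and mitochondrial share in that cluster was not tested.

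The median of the cholesterol enzymes was below vehicle within each of the 8 clusters, by unequal amounts. The median difference was -0.24 in the megakaryocyte-like cluster, where 17 of 17 enzymes were lower against 41.1% of all genes, and -0.07 in the HSC-like cluster, where 13 of 16 were lower against 46.4%. In the neutrophil-monocyte-like cluster it was -0.12, with 15 of 17 lower against 42.3%. In clusters 2, 4, 5, 6 and 7 the medians were -0.12, -0.15, -0.18, -0.07 and -0.12, and 15, 16, 16, 13 and 10 of 17 were lower, against 46.9%, 45.8%, 47.3%, 44.5% and 42.8%. Whether the difference in the megakaryocyte-like cluster exceeds that in the others was not tested. The megakaryocyte markers also differed within clusters, with sums of 5587 CPM with vehicle and 3519 CPM with DFO in the megakaryocyte-like cluster, 1329 and 757.5 CPM in cluster 4, 1533 and 888.5 CPM in cluster 6 and 233 and 191 CPM in the HSC-like cluster. They were lower with DFO in each of the 8 clusters, so neither values within a cluster nor equal cluster shares hold these markers constant, and their part in the members' differences was not tested. The same 9 of 17 enzymes were lower in each of clusters 0 to 6, as were Insig1 and Srebf2, where 13.1% of all genes were. Insig1 ranged from -0.38 in cluster 4 to -0.13 in the HSC-like cluster. Mvk ranged from -0.38 in cluster 5 to -0.16 in the HSC-like cluster, and Fdps from -0.31 to -0.11 in the same clusters. Idi1 was above vehicle in 5 of the 7 clusters, between -0.11 in the megakaryocyte-like cluster and 0.07 in cluster 4, so its small difference over all cells was no common shift. Fasn was above vehicle in all 8 clusters, from 0.20 in cluster 2 to 0.31 in cluster 6. It was at 53.7 and 62.1 CPM in the HSC-like cluster and at 59.6 and 70.9 CPM in the megakaryocyte-like cluster. With the cells weighted to equal cluster shares in both libraries, the cholesterol median was -0.15 and that of all genes 0.01.

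**Figure D3:**
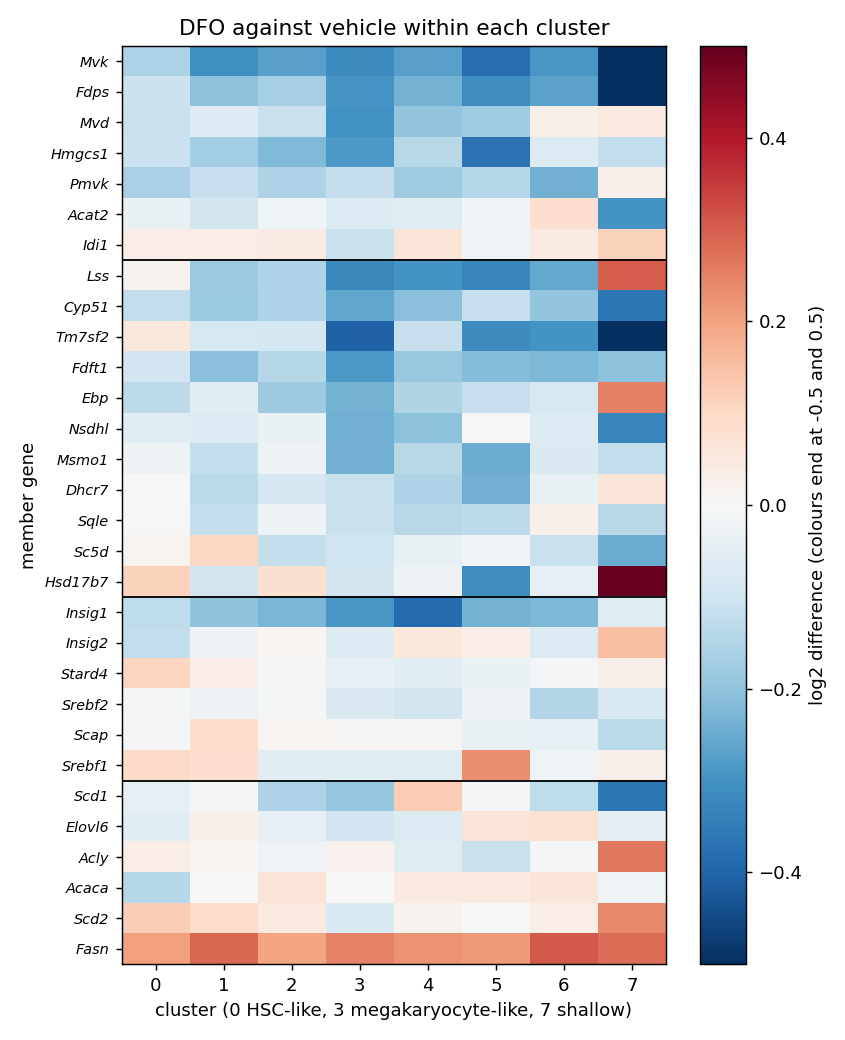
Difference between the libraries, log2((DFO CPM + 1)/(vehicle CPM + 1)), of each member (rows, by segment) within each of 8 clusters (columns); blue is lower and red higher with DFO, and the colour scale ends at -0.5 and 0.5. Rows such as Mvk, Fdps and Insig1 are blue in each of clusters 0 to 6, Fasn is red in all 8, and the column of the HSC-like cluster 0, with a cholesterol median of -0.07, is paler than that of cluster 3, with -0.24.

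Whether the members vary together from cell to cell was described within each library. Cells were thinned to 10000 molecules each and, for each gene in turn, put in 5 equal ranges by their summed molecules of the other cholesterol enzymes. The gene's level in the highest range was then set against the lowest. For all genes other than these enzymes, the ranges were by the sum of all 18 enzymes. With vehicle the highest and lowest range by all 18 held 1671 and 1672 cells. Their means were 13.9 and 2.67 cholesterol enzyme molecules. With DFO they held 1883 and 1884 cells, with means of 12.7 and 2.29. Median depth before thinning was nearly equal between the ranges, 27806 and 27778.5 UMIs with vehicle and 27289 and 27322 with DFO. These are descriptions across cells that share a library.

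Cholesterol enzymes varied together in both libraries. The median log2 ratio over 17 enzymes was 1.11 with vehicle and 1.02 with DFO, and 16 of 17 reached 0.25 in each, where 5.56% and 3.42% of 8869 other genes did. Hmgcs1 was at 102.9 CPM (98.1 to 108) in the highest range and 31.0 CPM (28.4 to 33.8) in the lowest with vehicle, a 3.32-fold ratio, and at 90.9 and 26.8 CPM with DFO, 3.40-fold. Msmo1 was at 159 and 55.6 CPM with vehicle (2.86-fold) and 149 and 48.9 CPM with DFO (3.05-fold). Cyp51 was at 82.1 and 29.1 CPM (2.82-fold) and at 68.5 and 27.6 CPM (2.48-fold). For Hmgcs1, Msmo1, Cyp51, Fdft1 and Mvd none of the 8869 other genes had a ratio as high in either library. Ebp was the exception among the abundant enzymes. It was at 64.3 CPM (60.5 to 68.2) in the highest range and 57.5 CPM (53.9 to 61.2) in the lowest with vehicle, and at 56.4 CPM (53.0 to 59.8) and 53.7 CPM (50.4 to 57.1) with DFO. These intervals overlapped, and the ratios were 1.12 and 1.05. Pmvk was next lowest with DFO, at 1.48-fold with vehicle and 1.45-fold with DFO, and Mvk was at 1.43-fold and 1.84-fold.

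The regulators split in the same cells. Insig1 was at 37.6 and 16.0 CPM with vehicle (2.36-fold) and at 30.6 and 13.2 CPM with DFO (2.32-fold), within the range of the enzymes. Stard4 followed at 1.51-fold and 1.49-fold. Srebf2 was at 61.0 and 52.8 CPM with vehicle and 61.8 and 52.2 CPM with DFO, a ratio of 1.16 and 1.18 with intervals apart. For Srebf1, Scap and Insig2 the intervals of the highest and lowest range overlapped in both libraries, with ratios between 0.905 and 1.11. In the fatty acid branch Scd2 had the highest ratio of the genes above the minimum, at 80.6 and 46.1 CPM with vehicle (1.75-fold) and 78.1 and 50.6 CPM with DFO (1.54-fold). Fasn was at 60.3 and 44.3 CPM (1.36-fold) and at 70.9 and 51.7 CPM (1.37-fold), so its level with DFO was higher in both ranges. Elovl6 was at 1.21-fold and 1.27-fold. Acly, at 1.09-fold and 1.06-fold, and Acaca, at 1.12-fold and 1.16-fold, had overlapping intervals. Of the related lists, 1 of 11 prenyl branch genes reached 0.25 with vehicle and 2 with DFO, 6 and 4 of 12 other sterol genes did, and 2 and 4 of 12 other fatty acid genes.

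**Figure D4:**
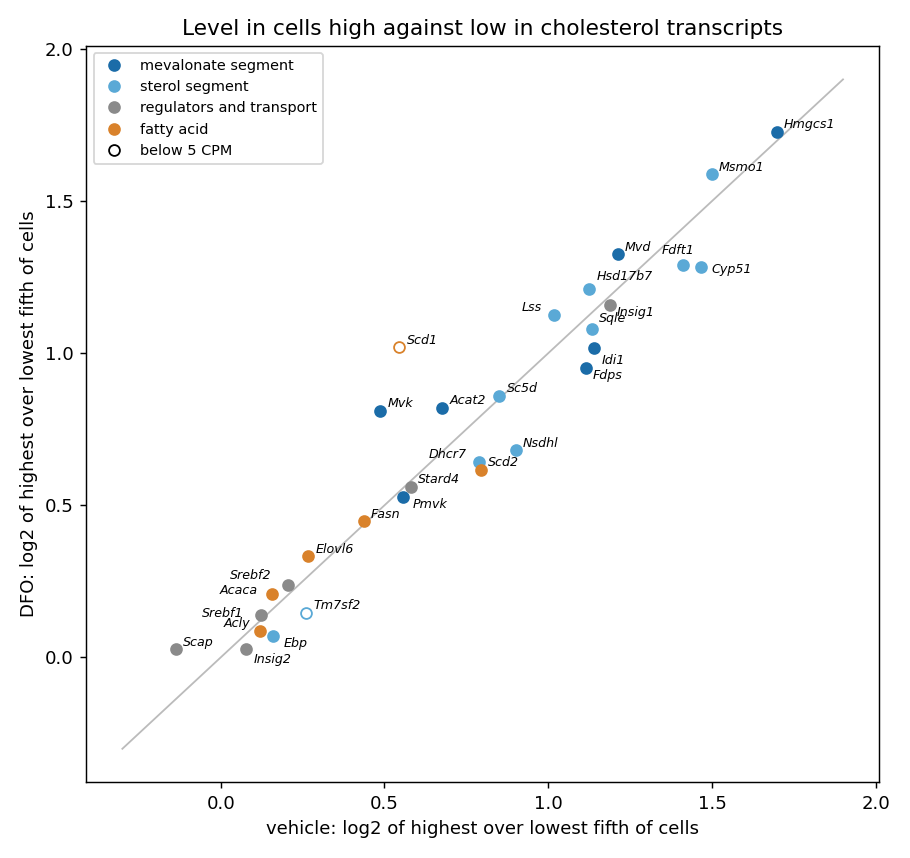
Each member's log2 ratio of its level in the 20% of cells highest in other cholesterol enzymes to the 20% lowest, vehicle on the horizontal and DFO on the vertical axis, after thinning to 10000 molecules per cell; the line marks equal ratios, colours give the segment and open circles are members under 5 CPM. Hmgcs1 and Msmo1 lie at the upper end in both libraries, Insig1 lies among the enzymes at 1.19 and 1.16, and Ebp lies with the regulators near 0.

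The 2 libraries gave nearly the same ratios, with a Pearson r of 0.97 over the 28 members at 5 CPM or more. The r is a description over genes measured in the same way in 2 sets of cells and carries no p. Megakaryocyte markers differed between the ranges with vehicle, 1791 CPM in the highest and 1085 CPM in the lowest, and less with DFO, 733 and 620 CPM. With the ranges taken within each cluster they were at 1543 and 1494 CPM with vehicle and 679 and 747 CPM with DFO, and the enzymes' median ratio was 1.02 and 1.01 on the log2 scale. Within clusters the gradation across cells was thus of similar size.

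How strongly an enzyme followed the others across cells and how far it differed with DFO are given side by side, since both use the same libraries. Hmgcs1 and Msmo1, the most strongly graded, differed by -0.18 and -0.14. Idi1 and Hsd17b7 had ratios above 2-fold in both libraries and differed by -0.03 and -0.04 over all cells. In the thinned cells, from which the ratios come, Idi1 differed by -0.03 and Hsd17b7 by -0.19. Ebp, hardly graded, differed by -0.17. Mvk, with the largest difference at -0.29, had ratios of 1.43 with vehicle and 1.84 with DFO. Thus some enzymes with like gradation across cells had unlike differences between the libraries. Over the 17 enzymes at 5 CPM or more, the Pearson r of gradation and difference was 0.007 with the vehicle ratios and -0.05 with the DFO ratios. Over the 28 members at 5 CPM or more it was -0.49 and -0.51. These r values describe genes and carry no p.

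**Figure D5:**
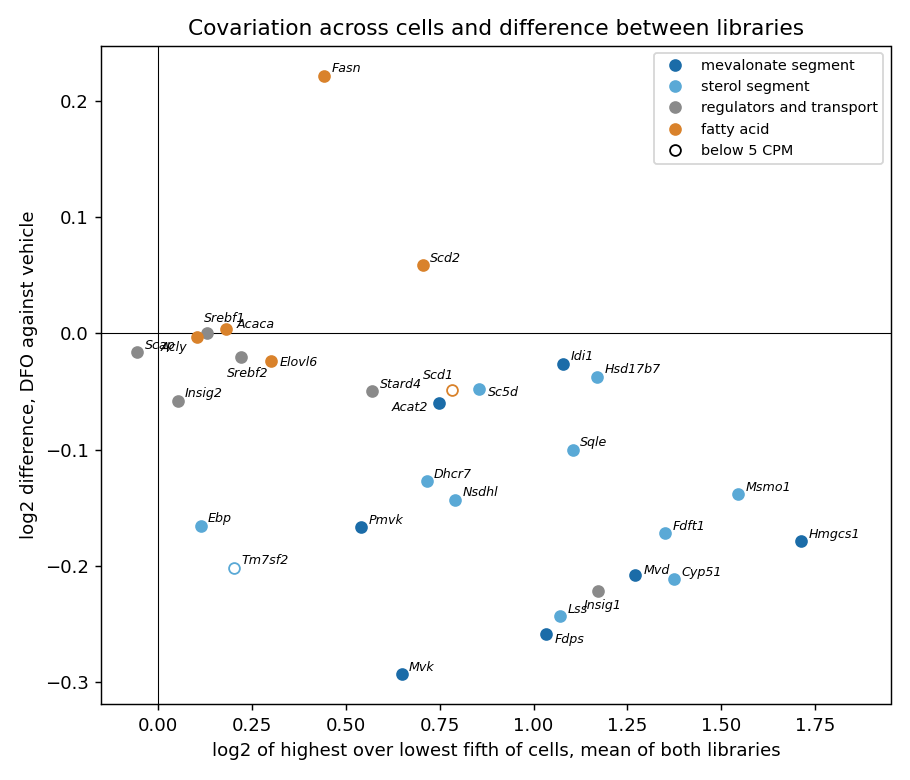
For each member, the log2 ratio between the 20% of cells highest and lowest in other cholesterol enzymes, as the mean of both libraries (horizontal), and the log2 difference between DFO and vehicle (vertical); colours give the segment and open circles are members under 5 CPM. The vertical values are over all cells, without thinning. Idi1 and Hsd17b7 lie far to the right and near 0 on the vertical axis, Ebp lies to the left at -0.17, and Fasn is alone at the top at 0.22.

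Cells could also be split by their sex-linked transcripts, since both male and female patterns occurred. With vehicle 4751 cells had a female and 2767 a male pattern, and with DFO 5251 and 3266. In female pattern cells the cholesterol enzymes summed to 740 CPM with vehicle and 667 CPM with DFO, and 17 of 17 were lower, where 42.9% of all genes were, with a median of -0.15. In male pattern cells they summed to 750.0 and 681 CPM, and 15 of 17 were lower, where 42.8% were, with a median of -0.16. The fatty acid genes were at 201 and 211 CPM in female and 199 and 211 CPM in male pattern cells. Fasn differed by 0.21 and 0.22 and Insig1 by -0.21 and -0.25 in female and male pattern cells. The 2 sets of cells come from the same 2 cultures and are no replicates of the treatment.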

How the data were processed

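The 2 single-cell libraries, 1 per group, were used. Per the submitters' processing notes, FastQC 0.11.9, Trim Galore 0.6.5, Cell Ranger 3.0.2 and mm10 were used; for the cell filter, none was given in the sources used here. The authors deposited a gene by cell table of natural log values. The tables show these as the natural log of 1 + 27408 × molecules / total of the cell, and all nonzero values gave whole molecules within 0.05. Molecules were summed per library and scaled to CPM with a pseudocount of 1. A minimum mean of 5 CPM was applied.

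Clusters came from 2000 variable genes without the members, 30 components, 15 neighbours and Leiden resolution 0.5, in scanpy 1.11.5 (Python 3.11.15, leidenalg 0.10.2). No doublet caller was run; leaving out cells with molecules of both sexes (211 and 335) is an alternative. A female pattern needed 5 or more Xist and no Y-linked molecules, a male one 2 or more Y-linked and at most 1 Xist molecule. Thinning to 10000 molecules left out 351 and 433 cells. Alternatives changed the scaling, pseudocount, minimum, cell filter, cluster shares, sex pattern, clustering and thinning. Gene models were GENCODE M21. The steps were tested on simulated data. The 30 members and the lists were chosen with earlier results of these data known. All members are named, and the 3 lowest and 3 highest cholesterol enzymes, the regulators and the fatty acid genes carry intervals.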

Additional observations from a re-analysis of the deposited data

Results flagged for a closer look

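Hsd17b7, Sc5d, Srebf1, Acaca and Elovl6 differed from vehicle in opposite directions in the cells of each sex pattern, and whether these pairs of values differ was not tested. On the log2 scale Hsd17b7 was at -0.0695 in female and 0.0403 in male pattern cells, and Sc5d at -0.0826 and 0.0348. Srebf1 was at -0.0296 and 0.0228, Acaca at -0.0285 and 0.0603, and Elovl6 at -0.0291 and 0.0334. These 5 are among the 11 members whose vehicle and DFO intervals overlapped over all cells.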

How the results depend on the processing

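No paired analysis was possible because each group has 1 library. Over 14 alternatives the cholesterol median lay between -0.19 and -0.13, and over the 12 of them that can alter the value of a single gene, 14 of the 17 enzymes stayed below 0. Fasn lay between 0.19 and 0.24 and Insig1 between -0.26 and -0.16. Hsd17b7 lay between -0.19 with thinned cells and 0.040 in male pattern cells. The fatty acid median, near 0, took both signs: it was -0.016 without mitochondrially encoded and ribosomal protein genes in the total, -0.015 with size factors, -0.0037 in female pattern cells, 0.054 in male pattern cells and 0.057 with thinned cells. The first 2 of these bring the median of all genes to about 0 from 0.019. The count of members at -0.1 or below was 6 at a size of 0.2, where 4.12% of all genes passed, and 17 at 0.05. Thinning to 5000 molecules gave covariation medians of 0.84 with vehicle and 0.74 with DFO. In all, 9 members changed sign under some alternative, with small values: Srebf1 at -0.018 under both of those scalings, -0.0037 without cells of both sexes and -0.030 in female pattern cells, Acaca at -0.016, -0.015, -0.023 (thinned) and -0.028 (female pattern), Acly at 0.0037 (mean of each cell) and 0.058 (thinned), Scd1 at 0.035 (thinned), Idi1 at 0.0021 and Scap at 0.0014 (equal cluster shares), and, in male pattern cells, Hsd17b7 at 0.040, Sc5d at 0.035 and Elovl6 at 0.033. The cause was not tested. Without the shallow cluster 7, an alternative added after seeing the data, the members at -0.1 or below were 13 in place of 14, with Sqle at -0.0999, and the cholesterol median was -0.17. Depth limits Tm7sf2 and Scd1, under 5 CPM, most; with 1 library per group, no difference can be set against variation between cultures.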

Other observations

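Cholesterol enzyme transcripts differed between ranges of cells ordered by mitosis genes. With thinned cells put in 5 equal ranges by their summed mitosis genes, the cholesterol enzymes were at 718 CPM (705 to 731) in the lowest, 777 CPM (764 to 791) in the middle and 755 CPM (742 to 768) in the highest range with vehicle, and at 639, 706 and 679 CPM with DFO. In both libraries the middle range was the highest and the lowest range the lowest, and each DFO value lay below the vehicle value of its range. The fatty acid genes lay between 192 and 200 CPM with vehicle and between 203 and 218 CPM with DFO. By summed S phase genes, the cholesterol enzymes lay between 715 and 768 CPM with vehicle and between 666 and 682 CPM with DFO. Median UMIs per cell differed between the mitosis ranges, from 21712.5 to 37620 with vehicle, and thinning sets all cells to the same depth.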
